A study of Mus musculus with 6 samples.

Results

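The 10 genes described here encode CTCF and the cohesin machinery: *Ctcf*, the core cohesin subunits *Smc1a*, *Smc3*, *Rad21*, *Stag1* and *Stag2*, the loading factor *Nipbl*, and the regulators *Wapal* (the older symbol of *Wapl*), *Pds5a* and *Pds5b*. They were chosen by name, under a rule that uses no measured value, from 22367 annotated protein-coding genes, and all ATAC-seq peaks overlapping each gene body or the 10 kb on either side were collected. Peaks overlapping the 1 kb on either side of an annotated transcription start of the gene were counted as start-site peaks, and the remainder as other peaks.

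ATAC-seq, which reads open chromatin from the sites where the transposase Tn5 can insert adapters, was performed in duplicate on 3 untreated mouse cell lines that differ in *Pax6* activity. Beta-TC3 is an insulinoma line (Pax6-HIGH), MV+ derives from lens epithelia of a wild-type C57BL6 mouse (Pax6-ON) and RAG derives from a renal adenocarcinoma of the BALB/c strain (Pax6-OFF). Each state of *Pax6* was thus represented by a single established line, and strain and line cannot be told apart. Nuclei of MV+ cells were released in a buffer with more NP40 detergent than those of the other lines, so that buffer and line cannot be told apart. Both replicates of a line were pooled in 1 peak call. Values are therefore given without replicate error, no test between lines was possible, and the intervals given cover counting error only.

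Cohesin is a ring-shaped complex in which SMC1A and SMC3 are joined by RAD21 and bound by STAG1 or STAG2. NIPBL loads the complex on chromatin, where it extrudes DNA loops until it meets CTCF bound to its motif, and WAPL releases it together with the PDS5 proteins. These genes are expressed in almost every dividing cell, and their promoters are mostly of the CpG island type.

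The calls held 28024 peaks from 100254099 fragments in Beta-TC3, 9821 peaks from 130955836 fragments in MV+ and 14022 peaks from 102223606 fragments in RAG. The lowest pileup (the number of fragments covering a peak summit) of any called peak was 25 in Beta-TC3, 30 in MV+ and 25 in RAG. A start-site peak was present for 4 of 9 islet beta cell markers in Beta-TC3, 2 in MV+ and 0 in RAG, which in Beta-TC3 and MV+ is near the share of all protein-coding genes (46.4% and 21.4%, with 36.1% in RAG), and the defining genes *Ins1*, *Ins2* and *Pdx1* had none in any line. Of 7 lens markers, *Pax6* and *Prox1* had a start-site peak in both Beta-TC3 and MV+, while *Cryaa* and *Foxe3* had none and *Cryab* had one only in RAG. Of 7 renal epithelial markers, RAG had a start-site peak at *Pax2* and *Cdh16*, a smaller share than that of all genes, and the other lines had 0. Start-site peaks gave the lens label of MV+ no marker that Beta-TC3 lacked, and these counts are a weak check of the labels.

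The reference sequence of 8 of these regions is shown here, because the comparisons below turn on them. The first 4 lie at start sites with a peak in Beta-TC3 and RAG but none in MV+, the fifth is the *Ctcf* start, where the MV+ peak was among the weakest of its line, and the others are an internal start of *Wapal*, an intronic site of *Stag1* found in every line and an intronic site of *Rad21* found only in Beta-TC3. Each is written 5′ to 3′ on the strand of its gene, in mm9, and is limited to stretches outside annotated exons. Each includes the highest summit of its site. For *Nipbl* this is the Beta-TC3 summit, 1034 bp upstream of the annotated start, and the start itself is not in the stretch. For *Ctcf* it is the RAG summit, and the summits of MV+ and Beta-TC3 are not in the stretch. Capitals mark matches to a GC box (GGGCGG), a CRE (TGACGTCA), an AP-1 site (TGANTCA) or a YY1 site (AAGATGGCG), read on both strands. A stretch without capitals held none of the 10 motifs searched. The wider start windows of *Ctcf* and *Nipbl*, described below, each held a GC box outside the stretch shown.
*Smc1a* start site (chrX:148450839-148450952, plus strand): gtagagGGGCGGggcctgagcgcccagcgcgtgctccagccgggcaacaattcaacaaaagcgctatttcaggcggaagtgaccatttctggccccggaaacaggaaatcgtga
*Stag2* first start site (chrX:39502107-39502327, plus strand): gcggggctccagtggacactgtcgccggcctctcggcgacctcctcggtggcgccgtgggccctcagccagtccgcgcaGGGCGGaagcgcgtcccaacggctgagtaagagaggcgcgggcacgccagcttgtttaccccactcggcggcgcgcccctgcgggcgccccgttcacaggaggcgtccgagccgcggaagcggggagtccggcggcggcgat
*Nipbl* start site (chr15:8395387-8395607, minus strand): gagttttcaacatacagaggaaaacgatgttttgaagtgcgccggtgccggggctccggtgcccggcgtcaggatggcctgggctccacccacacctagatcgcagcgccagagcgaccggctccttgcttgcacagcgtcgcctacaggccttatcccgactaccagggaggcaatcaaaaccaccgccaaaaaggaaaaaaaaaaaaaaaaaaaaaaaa
*Pds5a* start site (chr5:66089123-66089343, minus strand): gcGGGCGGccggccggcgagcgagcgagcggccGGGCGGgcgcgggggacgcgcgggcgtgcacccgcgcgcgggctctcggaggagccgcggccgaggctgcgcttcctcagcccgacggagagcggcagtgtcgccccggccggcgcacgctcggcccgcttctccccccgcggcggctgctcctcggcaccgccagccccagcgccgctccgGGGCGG
*Ctcf* start site (chr8:108160356-108160467, plus strand): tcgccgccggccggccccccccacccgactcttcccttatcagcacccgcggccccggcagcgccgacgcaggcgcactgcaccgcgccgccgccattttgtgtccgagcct
*Wapal* internal start site (chr14:35522021-35522241, plus strand): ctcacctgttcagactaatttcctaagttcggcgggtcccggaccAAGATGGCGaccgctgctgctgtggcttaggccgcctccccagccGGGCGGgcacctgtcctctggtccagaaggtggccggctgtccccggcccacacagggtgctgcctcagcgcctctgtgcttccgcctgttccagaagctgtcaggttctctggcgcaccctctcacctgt
*Stag1* intronic site (chr9:100506387-100506607, plus strand): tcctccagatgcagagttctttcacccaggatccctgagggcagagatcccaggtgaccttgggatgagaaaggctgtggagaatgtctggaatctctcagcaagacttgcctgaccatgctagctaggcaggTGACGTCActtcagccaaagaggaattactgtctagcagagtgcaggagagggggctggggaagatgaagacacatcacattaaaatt
*Rad21* intronic site (chr15:51809330-51809550, minus strand): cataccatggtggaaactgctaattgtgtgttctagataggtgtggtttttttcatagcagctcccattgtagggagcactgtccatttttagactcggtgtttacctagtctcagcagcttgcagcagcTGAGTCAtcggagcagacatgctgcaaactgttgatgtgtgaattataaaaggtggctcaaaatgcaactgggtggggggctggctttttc

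All 10 genes had a start-site peak in Beta-TC3 and in RAG, whereas 6 had one in MV+. *Ctcf*, *Smc3*, *Rad21*, *Stag1*, *Wapal* and *Pds5b* had a start-site peak in every line. *Smc1a*, *Stag2*, *Nipbl* and *Pds5a* had one in Beta-TC3 and RAG and none in MV+. For comparison, 46.4% of all protein-coding genes had a start-site peak in Beta-TC3, 21.4% in MV+ and 36.1% in RAG, 17.5% had one in all 3 lines, and 15.6% had one in Beta-TC3 and RAG but not in MV+. Among the 7387 protein-coding genes with a start-site peak in both Beta-TC3 and RAG, 47.1% lacked one in MV+, so the 4 of 10 seen here is near that background. When each line was limited to its 9821 peaks of smallest q-value, 9 of the genes kept a start-site peak in Beta-TC3 (*Nipbl* did not), 6 in MV+ and 9 in RAG (*Smc1a* did not), against 28.0%, 21.4% and 30.7% of all protein-coding genes.

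**Figure D1:**
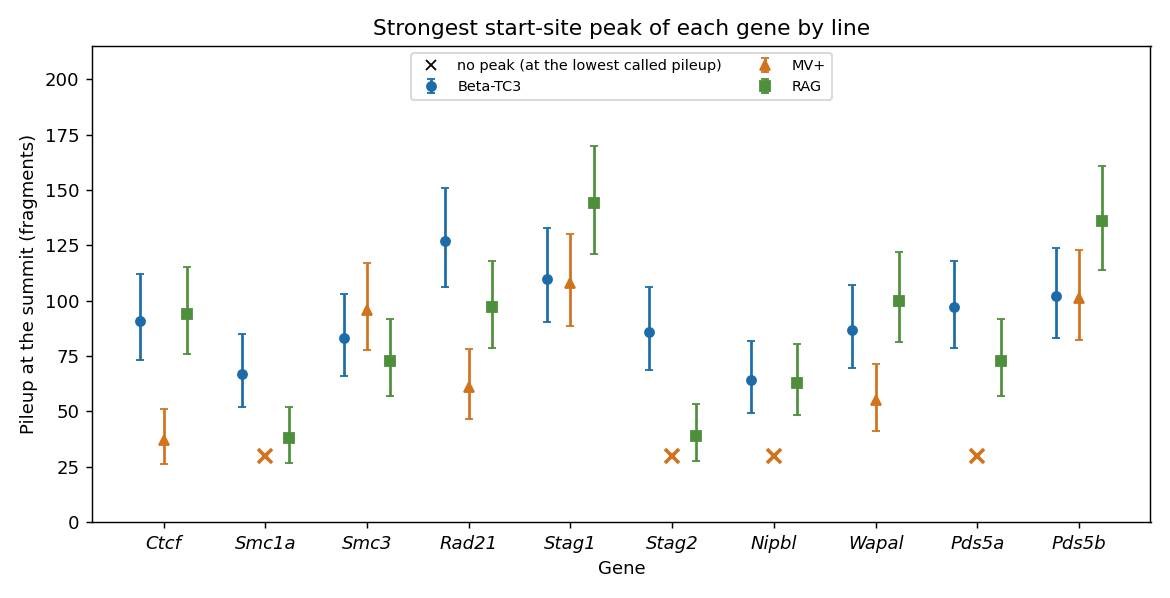
Pileup at the summit (fragments, not scaled for depth) of the strongest start-site peak of each gene in Beta-TC3 (circles), MV+ (triangles) and RAG (squares), with exact Poisson 95% intervals that cover counting error only. Crosses mark genes without a start-site peak, drawn at the lowest pileup of any called peak of that line; the 4 crosses, for *Smc1a*, *Stag2*, *Nipbl* and *Pds5a*, are all in MV+.

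*Ctcf* encodes the zinc-finger protein that binds insulators and marks loop anchors. The gene lies on chromosome 8 from 108160468 to 108206822 on the plus strand, with a single start-site peak in each line and no other peak within 10 kb. The pileup of that peak was 91 in Beta-TC3 (interval 73.3 to 112), 37 in MV+ (26.1 to 51.0) and 94 in RAG (76.0 to 115). Beta-TC3 and RAG thus had nearly the same number of fragments, and the MV+ interval overlapped neither, although the MV+ call rested on the most fragments. Pileups are not scaled for depth, and percent ranks come from lists of unequal length, so neither compares the lines on its own. Counted from the strongest peak of each line, *Ctcf* stood at 22.4% of the peaks in Beta-TC3, 94.5% in MV+ and 12.3% in RAG, and at 61.7%, 94.5% and 17.1% when each list was limited to 9821 peaks. The MV+ peak was also the shortest, 394 bp against 817 bp in Beta-TC3 and 896 bp in RAG. Its fold enrichment was 2.5 against 5.14 and 5.21, but the background was the same, 14.2 fragments, at every MV+ peak of these genes. In MV+ the fold enrichment thus restates the pileup.

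*Smc1a* and *Smc3* encode the long coiled-coil arms of the ring. *Smc1a*, on chromosome X from 148450971 to 148497237 (plus strand), had a start-site pileup of 67 in Beta-TC3 and 38 in RAG and no peak in MV+. Both summits lay upstream of the start, 129 bp and 115 bp away, between *Smc1a* and the divergent gene *Ribc1*, whose own start the peak also covered, so the peak cannot be assigned to either gene. Start-site peaks were scarcer on chromosome X than over all chromosomes, at 35.3% of its protein-coding genes in Beta-TC3, 13.2% in MV+ and 19.4% in RAG. The RAG peak of *Smc1a*, only 205 bp long, ranked at 76.7% of its line, the lowest rank of any of the 10 genes in RAG.

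*Smc3*, on chromosome 19 from 53674886 to 53720323 (plus strand), differed from *Smc1a* in having a strong peak in MV+. Its pileup was 83 in Beta-TC3 (66.1 to 103), 96 in MV+ (77.8 to 117) and 73 in RAG (57.2 to 91.8). The intervals overlapped in every pair, and MV+ had the highest value. The ranks were 26.3% in Beta-TC3, 18.6% in MV+ and 23.2% in RAG, and in lists of 9821 peaks they were 71.8%, 18.6% and 31.8%.

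*Rad21* encodes the kleisin subunit that closes the ring and is cut at anaphase. It lies on chromosome 15 from 51794151 to 51823306 on the minus strand and had the strongest start-site peak of the 10 genes in Beta-TC3. The pileup was 127 in Beta-TC3 (106 to 151), 61 in MV+ (46.7 to 78.4) and 97 in RAG (78.7 to 118), with the MV+ interval below both others. Its rank was 11.2% in Beta-TC3 and 11.4% in RAG but 49.7% in MV+ (31.3%, 15.8% and 49.7% in lists of 9821 peaks), and in MV+ the peak was 267 bp long against 984 bp and 719 bp.

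*Stag1* and *Stag2* encode the alternative subunits that bind RAD21 and contact CTCF. *Stag1*, on chromosome 9 from 100498217 to 100858964 (plus strand), had its start-site peak inside the annotated gene body rather than at its most 5′ start. The summit lay 45586 bp downstream of that start in Beta-TC3 and 64 bp upstream of an internal annotated start at 100543867, and no line had a peak at the most 5′ start. Its pileup was 110 in Beta-TC3, 108 in MV+ and 144 in RAG. The gene was among the strongest in every line, with ranks of 15.3%, 13.5% and 3.27%, and the RAG peak reached 1568 bp in length.

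*Stag2*, on chromosome X from 39502494 to 39630362 (plus strand), had 8 distinct annotated starts and a different set of peaks in each line. Beta-TC3 had 3 separate start-site peaks, with pileups of 69, 56 and 86, whose summits lay 277 bp upstream, 1219 bp downstream and 2895 bp downstream of the most 5′ start. RAG had only the first of them, with a pileup of 39 (27.7 to 53.3) and a rank of 74.2%, and MV+ had none. The 2 internal sites were thus called in Beta-TC3 alone, and *Stag1* and *Stag2*, the alternative forms of 1 subunit, stood near opposite ends of the rank order in RAG. They lie on different chromosomes. In RAG the median pileup of start-site peaks common to the 3 lines was 56 on chromosome X and 66 on chromosome 9.

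*Nipbl* encodes the loader and lies on chromosome 15 from 8241225 to 8394463 on the minus strand. Its peaks were weak relative to their surroundings. The strongest was broad in each of Beta-TC3 (1616 bp) and RAG (1335 bp), while the others were 285 bp and 391 bp long. Beta-TC3 had a start-site peak with a pileup of 64 and a fold enrichment of 2.25, whose summit lay 1034 bp upstream of the only annotated start, and RAG had 2, with pileups of 58 and 63 and fold enrichments of 2.3 and 2.65, at 238 bp and 2093 bp upstream. Together with another Beta-TC3 peak further upstream (pileup 60), they formed 1 continuous site from 8394396 to 8396824. The local background computed from these fold enrichments was 27.9 fragments in Beta-TC3 and 23.2 to 24.6 in RAG, the highest of the start-site peaks of these genes within each line. By fold enrichment the Beta-TC3 peak stood at 94.9% of its line, although its pileup stood at 39.5%.

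*Wapal* encodes the factor that opens the ring for release. It lies on chromosome 14 from 35487114 to 35561169 (plus strand), and its main start-site peak had a pileup of 87 in Beta-TC3 (69.7 to 107), 55 in MV+ (41.4 to 71.6) and 100 in RAG (81.4 to 122). The RAG interval lay above that of MV+, while the intervals of Beta-TC3 and MV+ overlapped slightly. A further peak lay at an internal annotated start about 35 kb downstream (summit offset 35167 bp in Beta-TC3 and 35017 bp in RAG), with a pileup of 41 in Beta-TC3 and 55 in RAG and no call in MV+. This is the region of the *Wapal* internal sequence shown above, which holds both a YY1 and a GC box match.

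The PDS5 proteins bind RAD21 and act with either WAPL or the acetyltransferases that stabilise cohesin. *Pds5a*, on chromosome 5 from 66006499 to 66089095 (minus strand), had a pileup of 97 in Beta-TC3 (78.7 to 118) and 73 in RAG (57.2 to 91.8) and no peak in MV+. At ranks of 19.9% and 23.2% it was the strongest of the 4 genes without a peak in MV+. *Pds5b*, on the same chromosome from 151476314 to 151613265 (plus strand), had 102 in Beta-TC3, 101 in MV+ and 136 in RAG, with summits within 10 bp of the annotated start in each line. Its ranks of 18.1%, 16.2% and 3.96% placed it beside *Stag1* among the strongest of the 10 genes in MV+ and RAG.

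**Figure D2:**
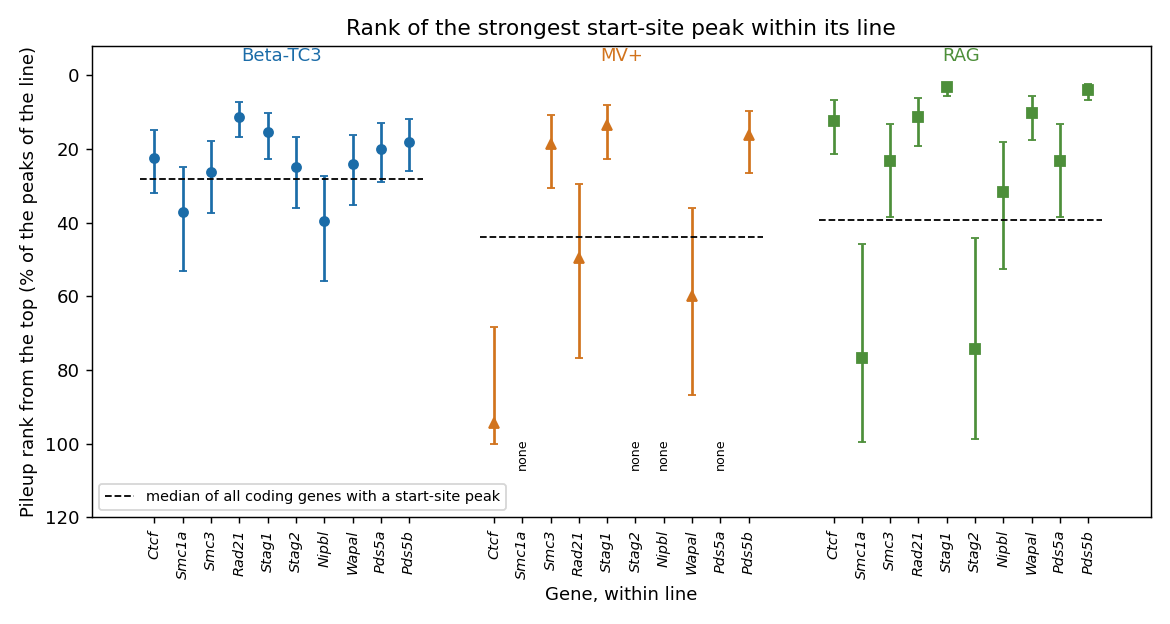
Pileup rank of the strongest start-site peak, as percent of all peaks of the line counted from the strongest (vertical axis, strongest at the top), for each gene within each line. Bars show the ranks at the ends of the Poisson 95% interval of the pileup, and dashed lines the median of all protein-coding genes with a start-site peak (28.1% in Beta-TC3, 44.0% in MV+ and 39.2% in RAG); *Ctcf* in MV+ stands at 94.5%.

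Over the genes with a start-site peak, the median rank was 23.3% in Beta-TC3 (10 genes, 11.2% to 39.5%), 34.2% in MV+ (6 genes, 13.5% to 94.5%) and 17.8% in RAG (10 genes, 3.27% to 76.7%). The medians over all protein-coding genes with a start-site peak were 28.1%, 44.0% and 39.2%. In lists of 9821 peaks per line, the medians of the genes were 61.7%, 34.2% and 17.1% against 42.7%, 44.0% and 44.9%, so that in Beta-TC3 the genes turned from stronger than the median gene to weaker, and from stronger than in MV+ to weaker. Among coding start-site peaks only, their medians were 43.1%, 39% and 23.2%. Moving every pileup of the genes to the ends of its counting interval placed their median between 15.5% and 33.6% in Beta-TC3, 20.2% and 53.6% in MV+ and 9.86% and 29.9% in RAG. In the full lists, the median over all genes lay within that range in Beta-TC3 and MV+ and outside it in RAG, and it was not tested whether the genes differ from others of like expression.

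By median rank, genes that lacked a peak in MV+ were weaker in the other lines, both among these genes and over the genome. In RAG, the median rank was 53.0% for the 4 genes without an MV+ peak and 10.9% for the 6 with one, beside 53.6% and 22.5% over all genes with a start-site peak in Beta-TC3 and RAG. In Beta-TC3, the corresponding values were 30.9% and 20.2%, beside 35.5% and 12.4%. *Pds5a* departed from this order, being at 23.2% in RAG, level with *Smc3*, which had a peak in MV+. In Beta-TC3, *Pds5a* at 19.9% stood ahead of *Ctcf* (22.4%), *Wapal* (24.2%) and *Smc3* (26.3%), which had a peak in MV+. *Stag2*, at 24.8% there, also stood ahead of *Smc3*. In RAG, the weakest of the 4 genes without an MV+ peak were *Smc1a* (76.7%) and *Stag2* (74.2%), both on chromosome X, against 31.8% for *Nipbl* and 23.2% for *Pds5a*.

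**Figure D3:**
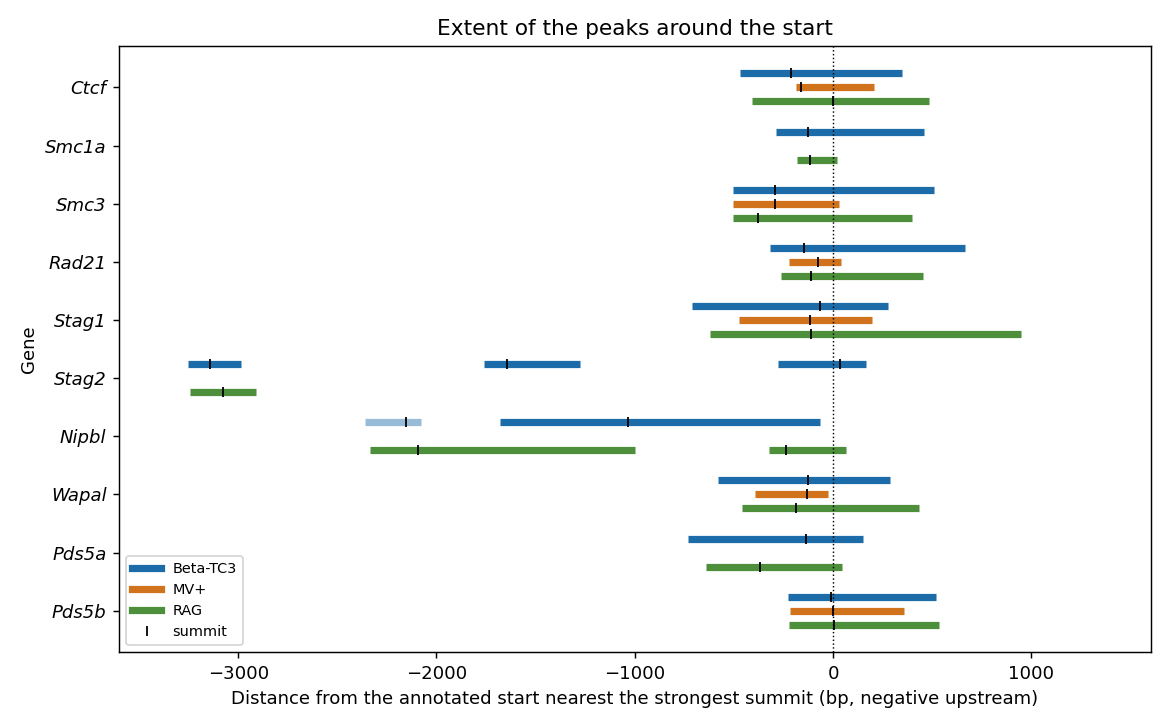
Extent of each peak (bars) and its summit (ticks) around the annotated start nearest the strongest summit of the gene, in bp with negative values upstream; colours give the line, and the paler bar is the *Nipbl* peak counted as other. MV+ bars are the shortest at all 6 genes that have one. Within a line, the *Stag2* peaks and the *Nipbl* peaks lie apart from one another, but at both genes peaks of Beta-TC3 and RAG overlap. Peaks beyond the axis, such as the internal *Wapal* peak, are not drawn.

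The summits lay mostly just upstream of the start, for 9 of 10 genes in Beta-TC3, 6 of 6 in MV+ and 9 of 10 in RAG, beside 64.8%, 68.4% and 66.3% of all genes with a start-site peak. The peaks had a median length of 874.5 bp in Beta-TC3, 464 bp in MV+ and 825.5 bp in RAG, compared with 739 bp, 459 bp and 566 bp over all genes. At each of the 6 genes with a peak in every line, the MV+ peak was the shortest. Short MV+ peaks were thus a property of the whole call, as the median over all genes shows.

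To compare the lines, the pileup of each start-site peak was divided by the median pileup over the 3905 protein-coding genes with a start-site peak in all 3 lines, which was 121 in Beta-TC3, 67 in MV+ and 74 in RAG. A ratio of this relative pileup of at least 2-fold in either direction was counted. Relative to MV+, Beta-TC3 had 0 of 6 genes higher and 1 lower, where 5.31% and 10.7% of all genes with both peaks were. Relative to RAG, Beta-TC3 had 0 of 10 higher and 2 lower, where 5.85% and 10.2% were. MV+ relative to RAG had 0 of 6 higher and 1 lower, where 6.33% and 3.08% were. These counts are too small to be read against shares of that size.

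The directions depended on the scaling. With pileup per fragment of the call in place of the relative pileup, Beta-TC3 against MV+ had 3 of 6 genes higher (*Ctcf*, *Rad21* and *Wapal*) and 0 lower, where 58.5% and 0.542% of all genes with both peaks were. Beta-TC3 against RAG had 1 of 10 higher (*Stag2*) and 0 lower, where 30.9% and 0.69% were, and MV+ against RAG had 0 of 6 higher and 3 lower (*Ctcf*, *Rad21* and *Wapal*), where 1.24% and 16.4% were. On that scale the median ratio over all genes was 2.22, 1.55 and 0.751 for these pairs, and the relative pileup takes out most of this genome-wide shift.

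The gene lower in MV+ than in RAG was *Ctcf*, with a ratio of 0.435 and a counting interval from 0.289 to 0.642, which is 2.3-fold lower and stood at the 1.14th percentile of 4031 genes. The interval excludes equality but includes a 2-fold difference. With the median of chromosome 8 in place of the genome-wide one (66 in MV+ and 64 in RAG), the ratio was 0.382 (0.254 to 0.564). Per fragment it was 0.307 (0.204 to 0.454). Between Beta-TC3 and MV+, the *Ctcf* ratio was 1.36 with an interval that included equality (0.92 to 2.05), but per fragment it was 3.21 (2.17 to 4.84), where the median gene was at 2.22.

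*Smc3* was lower in Beta-TC3 than in MV+, at 0.479 (0.353 to 0.649). *Stag1* and *Pds5b* were lower in Beta-TC3 than in RAG, at 0.467 (0.361 to 0.603) and 0.459 (0.351 to 0.597). These 3 ratios moved inside 2-fold with the median of the same chromosome, to 0.639 for *Smc3*, 0.531 for *Stag1* and 0.624 for *Pds5b*. Per fragment they were 1.13 (0.832 to 1.53), 0.779 (0.602 to 1.01) and 0.765 (0.586 to 0.996), so the direction of *Smc3* turned. The chromosome medians ranged from 86.5 to 248 in Beta-TC3, from 60 to 71 in MV+ and from 56 to 108 in RAG, and they were 88 on chromosome 19 and 95 on chromosome 9 in Beta-TC3, below its genome-wide median of 121. The part of these chromosome-wide levels in the ratios of single genes was not otherwise tested.

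For the other genes the ratio of relative pileup stayed within 2-fold, but not all ratios per fragment did. *Rad21* was at 1.15 (0.843 to 1.59) between Beta-TC3 and MV+, 0.801 (0.61 to 1.05) between Beta-TC3 and RAG and 0.695 (0.496 to 0.967) between MV+ and RAG. Per fragment, *Rad21* was at 2.72, 1.33 and 0.491 in these pairs. *Wapal* was lower in MV+ than in RAG by an interval that excluded equality, at 0.607 (0.429 to 0.852), and *Smc3* was higher, at 1.45 (1.06 to 2.0). Per fragment, *Wapal* was at 0.429 and *Smc3* at 1.03 (0.749 to 1.41) in that pair, and *Wapal* was at 2.07 against 0.876 between Beta-TC3 and MV+. For *Smc1a*, the ratio between Beta-TC3 and RAG was 1.08 (0.714 to 1.65), and 1.8 (1.19 to 2.75) per fragment. For *Stag2*, the strongest peaks of the lines lie at different starts, and the ratio at the shared first start was 1.08 (0.72 to 1.65). That of the strongest peaks was 1.35 (0.914 to 2.02), or 2.25 (1.52 to 3.37) per fragment.

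**Figure D4:**
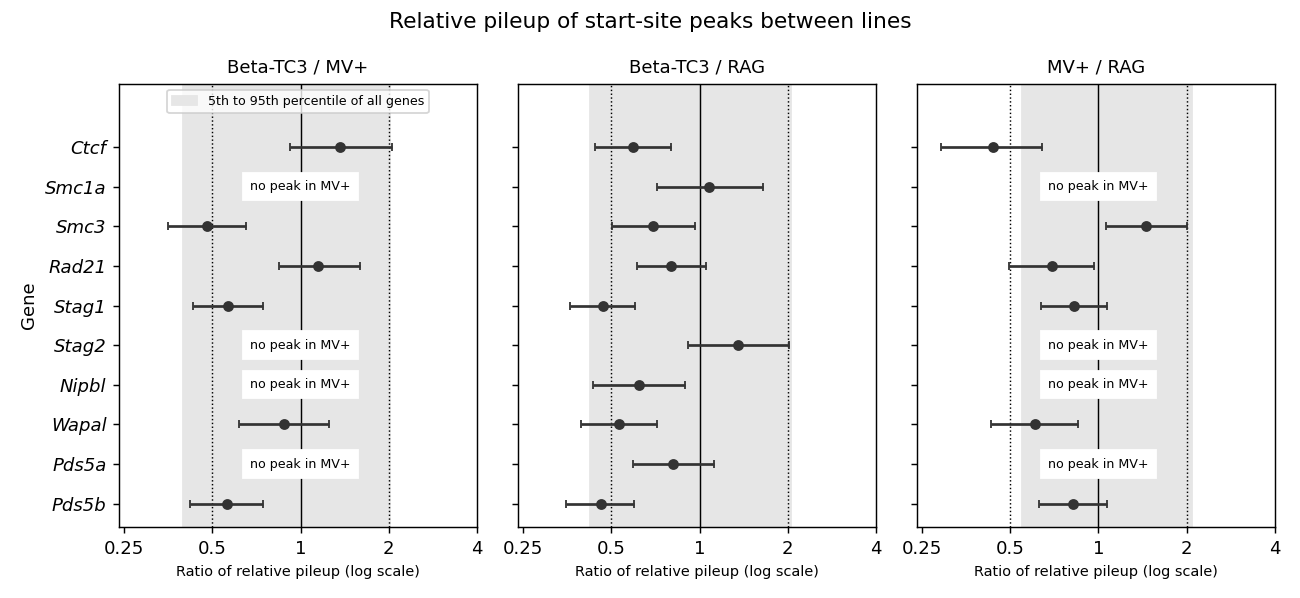
Ratio of relative pileup between 2 lines (log axis) for each gene with a start-site peak in both, with the exact 95% counting interval; solid lines mark equality, dotted lines 2-fold, and grey bands the 5th to 95th percentile of all protein-coding genes with both peaks. *Ctcf* in MV+ over RAG, at 0.435, is the one point outside its band, which begins at 0.548.

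Peaks away from the annotated starts of these genes were fewer per Mb than over all protein-coding genes, but per gene they were fewer only in RAG. They include, in each line, the peak at the start of the neighbouring gene *N4bp2l2*. The gene bodies with their flanks spanned 1.3 Mb and held 7 other peaks in Beta-TC3, 2 in MV+ and 2 in RAG, which is 5.37, 1.54 and 1.54 per Mb, compared with 10.4, 2.9 and 4.89 per Mb over all protein-coding genes. For these 10 genes, such counts stand beside means per gene of 0.682, 0.19 and 0.32 over all protein-coding genes. The body of *Stag1* alone is 361 kb long, and the part of gene length in the values per Mb was not tested. The Beta-TC3 count fell to 2, the same as in MV+ and RAG, with 9821 peaks per line, and the counts were 2, 1 and 1 without flanks. At least 1 other peak was found for 5, 2 and 2 of the 10 genes, against 38.2%, 13.8% and 23.9% of all protein-coding genes. Merged by overlap, the peaks formed 19 sites. Of 13 start sites, 6 were found in 3 lines, 5 in 2 lines and 2 in 1 line, and of 6 other sites 2 were found in 3 lines and 4 in Beta-TC3 alone. The *Nipbl* peak counted as other in Beta-TC3 merged into the start site described above.

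The other sites in all 3 lines were at *Stag1* and *Pds5b*. The *Stag1* site, from 100506248 to 100506836 in an intron about 8 kb downstream of the most 5′ start, had a pileup of 51 in Beta-TC3 (38.0 to 67.1), 61 in MV+ (46.7 to 78.4) and 74 in RAG (58.1 to 92.9), and these intervals overlapped. It ranked at 53.8%, 49.7% and 22.5%. The CRE match in the sequence shown above lay within 150 bp of the summit in each line, a match found at 0.953%, 0.586% and 0.607% of the other peaks of those lines. The *Pds5b* site, about 8 kb upstream of the gene from 151467698 to 151468531, was the start site of the neighbouring gene *N4bp2l2*, with pileups of 109, 109 and 129.

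The 4 sites found only in Beta-TC3 were weaker on the whole than the start sites. At *Rad21*, a peak with a pileup of 86 lay past the 3′ end of the gene, from 51792716 to 51793583, and one with a pileup of 47 lay in an intron, from 51809174 to 51809784. *Smc3* had a peak of 39 downstream of its 3′ end and *Stag1* one of 37 upstream of its most 5′ start. The intronic *Rad21* site and the upstream *Stag1* site each held an AP-1 match within 150 bp of the summit, as did 16.7% of the other peaks of Beta-TC3. The intronic *Stag1* site found in every line also held one within 150 bp of the Beta-TC3 and MV+ summits. It lay outside the window of the RAG summit, which stood further upstream, so this is a difference of window and not of sequence. Of the other peaks of MV+ and RAG, 46.4% and 25.8% held an AP-1 match. An AP-1 match was thus not particular to the sites of Beta-TC3 alone.

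Base composition differed among the start-site windows. The window ran from 250 bases upstream to 50 downstream of the start nearest the summit of highest fold enrichment in any line. For genes without a start-site peak, the most 5′ start was used. The median GC content was 66.0% (51.0% to 84.7%) against 62.7% over coding genes with a start-site peak in any line, and the observed over expected CpG ratio was 1.02 (0.638 to 1.16) against 0.8. *Rad21*, *Smc1a*, *Stag2* and *Nipbl* lay below that median GC content, and *Stag2* and *Nipbl* also below that CpG ratio. *Pds5a* had the highest GC content and *Stag2* the lowest of both. The *Stag2* window lay at the internal start at 39505357, where only Beta-TC3 had a peak. The stretch shown above for its first start, shared with RAG, had a GC content of 75.1%. A GC box, the site of SP and KLF factors, was present in 10 of 10 windows, compared with 69.9% of coding genes with a start-site peak and 46.3% of all coding genes.

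A CCAAT box (CCAAT, bound by NF-Y) was found in 5 windows, those of *Rad21*, *Smc1a*, *Stag1*, *Wapal* and *Pds5b*, compared with 39.4% of coding genes with a start-site peak and 37.9% of all coding genes. An ETS match (CCGGAAG) was found in *Rad21* and *Nipbl*, compared with 18.7% and 11.3%. None of the 10 windows held the CTCF core (CNAGGNGGC, 13.6% of coding genes with a start-site peak), an NRF1 match (GCGCATGCG, 3.79%), a CRE (3.66%), an E-box (CACGTG, 10.2%), a YY1 match (3.46%), TCTCGCGAG (1.5%) or an AP-1 match (4.28%). Over all coding genes these shares were 9.88%, 2.15%, 2.42%, 7.86%, 2.07%, 0.899% and 6.72%. Within 150 bp of the summit instead of the start, the CTCF core was found at the *Ctcf* peak of RAG. An E-box was found at the *Smc3* peak of every line, and a YY1 match at *Rad21* in MV+ and at the internal *Wapal* start. At *Nipbl*, the peak furthest upstream held an E-box and an AP-1 match in both RAG and Beta-TC3, while no *Nipbl* peak held a GC box. Both strands were searched, none of the motifs contains another, and the absence of these letters says only that they are not in these windows.

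**Figure D5:**
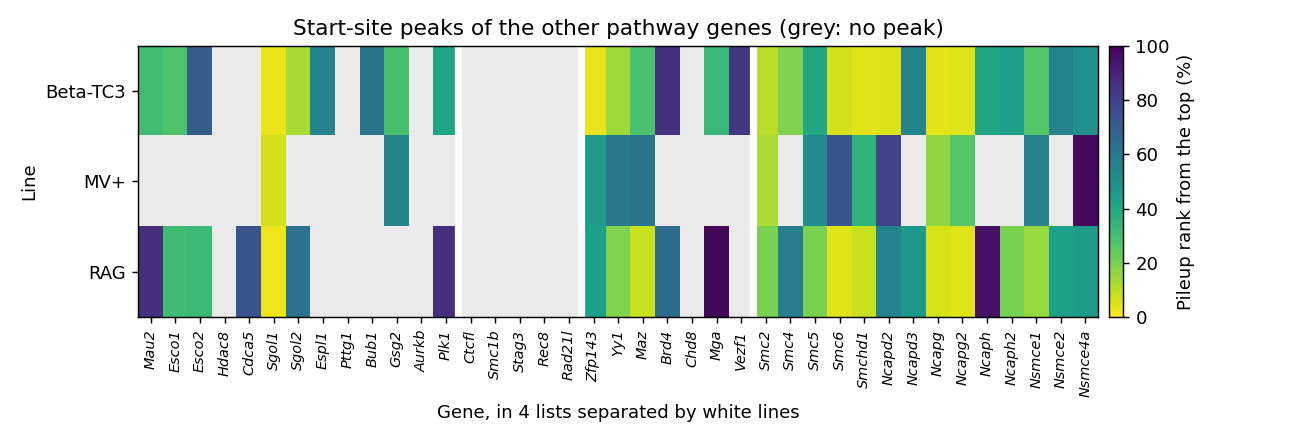
Pileup rank of the strongest start-site peak (colour, percent of the peaks of the line from the strongest) for 39 further genes of the pathway in each line, with grey where no start-site peak was called. The lists from left to right are loading, acetylation, release and cohesion (13 genes), germ-line paralogs (5, all grey), CTCF partners and cofactors (7), and related SMC complexes (14, all with a peak in Beta-TC3 and RAG).

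Among 39 further genes of the pathway, 29 had a start-site peak in Beta-TC3, 14 in MV+ and 26 in RAG, and 9 had none, where 46.4%, 21.4% and 36.1% of all protein-coding genes had one and 49.5% had none. Genes for loading, acetylation, release and cohesion had one in 9, 2 and 7 of 13 cases. *Sgol1*, which encodes the protector of centromeric cohesin, had one in all lines, with pileups of 201, 142 and 159. *Mau2*, the partner of NIPBL, had 76 in Beta-TC3 and 34 in RAG and, like *Nipbl*, no peak in MV+. *Hdac8*, the SMC3 deacetylase, *Pttg1* (securin) and *Aurkb* had no start-site peak in any line.

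The 5 germ-line paralogs (*Ctcfl*, *Smc1b*, *Stag3*, *Rec8* and *Rad21l*), which encode testis or meiotic forms of CTCF and cohesin subunits, had no start-site peak in any line, whereas their somatic counterparts all had one in Beta-TC3 and RAG. Of 7 CTCF partners and cofactors, 6 had a start-site peak in Beta-TC3, 3 in MV+ and 5 in RAG. The 3 in MV+ were *Zfp143*, *Yy1* and *Maz*, which encode DNA-binding proteins found at CTCF sites, and each had a peak in all 3 lines. Of 14 genes for condensin, SMC5/6 and SMCHD1, 14, 9 and 14 had one, among them *Smc2* with pileups of 131, 110 and 77 and *Smc4* with 98 in Beta-TC3, 46 in RAG and no peak in MV+.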

How the data were processed

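ATAC-seq of 3 mouse cell lines (2 replicates each) was analysed from the processed peak tables. Per the submitters' processing notes, reads were trimmed with Trim Galore 0.4.1, aligned to mm9 with Bowtie2 2.2.6 and handled with SAMtools 1.6 and bedtools, and peaks were called with MACS2 2.1.1. Both replicates of a line were pooled in 1 call without a control library, at a q-value threshold of 0.05, and both files of each line held the same call. The pileup is a signal that the authors deposited without scaling for depth, and the authors' p- and q-values are −log10 values. The fold enrichment is the deposited ratio to a background, for which the call used a regional window of 6250 bp. The background computed from it was 14.2 at every MV+ peak of these genes, so it did not vary from region to region there. Whole fragments were used without a shift to the Tn5 cut site and duplicates were kept, which can widen peaks and raise pileups.

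Genes and exons were taken from GENCODE M1 on NCBIM37 (mm9), and all 51319 of 51319 peaks on the chromosomes read lay within their ends. A start-site peak overlapped 1 kb around any annotated start by at least 1 bp, and ranks used the strongest such peak. The background was computed from pileup and fold enrichment, each with the pseudocount of 1 that MACS2 adds. Intervals are exact 95% Poisson, or Clopper-Pearson for ratios, and cover counting error only. They treat fragments as independent counts, and because duplicates were kept they may be too narrow. With 1 pooled call per line no test was run. Python 3.11.15, pandas 2.3.3, NumPy 2.4.6, SciPy 1.17.1 and matplotlib 3.10.9 were used, and the scripts were tested on simulated data. All 10 genes are named, with the members of 4 pathway lists, neighbouring genes whose start has a peak, and sequences of start-site peaks and other sites, chosen among them for the comparisons they bear on. The genes, lists and markers were chosen with earlier results of these data known. Of the markers, *Sox1* could not be matched. Of the pathway genes, *Rad21l* was matched as *Gm14160* and haspin as *Gsg2*.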

Additional observations from a re-analysis of the deposited data

How the results depend on the processing

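In 15 alternatives, 76 values were recomputed, of which 59 stayed within 1.5 times a count or within the counting range of a rank, and 17 moved. The number of genes with a start-site peak stayed at 9 or 10 in Beta-TC3 and RAG and at 5 or 6 in MV+, *Stag1* being the gene without one in every line when only the most 5′ start counted. With 9821 peaks in every line, the median rank in Beta-TC3 was 61.7% of the smaller set and its other peaks fell to 2. With only the most 5′ start, other peaks numbered 11 in Beta-TC3 and 4 in RAG. Without flanks they numbered 2 in Beta-TC3, 1 in MV+ and 1 in RAG, and with a 50 kb flank 24, 4 and 8. Requiring an overlap of 50% of both peaks left 5 sites in all 3 lines instead of 8. Ranked among coding start-site peaks only, the median in Beta-TC3 was 43.1%. Genes past 2-fold numbered 3 between Beta-TC3 and MV+, 1 between Beta-TC3 and RAG and 3 between MV+ and RAG with pileup per fragment (3 higher, 1 higher and 3 lower in the first-named line, against 1, 2 and 1 lower), and 0, 0 and 1 with the median of the same chromosome. Comparing only overlapping peaks, an alternative chosen after seeing the data, left the counts at 1, 2 and 1. The cause of these changes was not tested. No paired analysis was possible because both replicates of each line were pooled in a single call, and for the same reason no replicate could be left out.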

Other observations

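The *Smc3* start-site peaks of all 3 lines began at the same base, 53674380 on chromosome 19 of mm9, while they ended at 53675393 in Beta-TC3, 53674913 in MV+ and 53675283 in RAG. No other start site of these genes had the same upstream edge in every line. At *Ctcf*, the summits of the 3 lines were spread over 211 bp, at *Pds5b* over 12 bp, and at the *Nipbl* site over 1916 bp.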
